A study of Homo sapiens with 5 samples.

Results

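The ZBTB16 enhancer domain is a stretch of chromosome 11 in which peaks of 2 histone marks fill much of a gene body in VCaP, an established line of human prostate cancer cells. The locus was chosen by its H3K27ac length, and its members are all deposited peak intervals that overlap positions 113850000 to 114200000 of human genome build hg19, a window of 350 kb. They number 240 of 364358 intervals in all lists. H3K27ac replicates 1 and 2 gave 39 of 54996 and 53 of 65106 intervals, and H3K4me1 replicates 1 and 2 gave 79 of 118551 and 69 of 125705. The window holds ZBTB16 (gene ID 7704) from 113.93 to 114.121 Mb and NNMT (gene ID 4837) from 114.128 to 114.183 Mb, both on the plus strand. These limits are given to 1 kb, so distances to a start site are no finer than that.

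The study mapped H3K27ac, the acetylated form of lysine 27 of histone H3, and H3K4me1, its form with a single methyl group on lysine 4, by chromatin immunoprecipitation with sequencing. There were 2 libraries for H3K27ac, 2 for H3K4me1 and 1 input, which is not analysed here. All were VCaP cells grown in medium with fetal bovine serum, with no treatment or genetic change named, so the groups differ in antibody only and stand for 1 cell line. No label says whether replicates were separate cultures, and the spread between them may be technical. Each list holds positions of intervals without height or significance, and read numbers are unknown. A value below is therefore a position, a count of intervals or the share of bases inside an interval (coverage), never a level of the mark, and ZBTB16 and NNMT transcription was not measured.

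ZBTB16, also called PLZF, encodes a transcriptional repressor with a BTB domain and zinc fingers. It is known as a gene induced by glucocorticoids and androgens, and as a fusion partner of RARA in a rare form of acute promyelocytic leukemia. NNMT encodes nicotinamide N-methyltransferase, a cytosolic enzyme that methylates nicotinamide with S-adenosylmethionine as donor. H3K4me1 lies at enhancers, whether active or poised, and beside promoters. H3K27ac lies at active enhancers and at active promoters, and long runs of it within a gene or beside it are often called super-enhancers.

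The choice of the locus rested on the following values. Regions found in both H3K27ac libraries were strung together over the gap length conventional for super-enhancers, which gave 27436 domains, and the domain inside ZBTB16 ranked 3 by H3K27ac length. It runs from 113959250 to 114080689, that is from 29.2 to 151 kb downstream of the ZBTB16 start, and covers 63.6% of the length of the gene. It holds 19 regions that add up to 63.9 kb. These values describe how the locus was picked and no test was made on them. The window limits cut through no interval. Inside it, the outermost intervals lay 12299 to 13249 bp from the upstream limit and 3492 to 9814 bp from the downstream limit. Outside it, the nearest H3K27ac intervals lay 72471 and 72382 bp upstream and 11235 and 11218 bp downstream in replicates 1 and 2. The nearest H3K4me1 intervals lay 3647 bp upstream in both libraries, and 38075 and 11268 bp downstream.

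Both marks were denser inside ZBTB16 than in the other stretches of the window. For H3K27ac this follows from the choice of the locus, since the domain that led to it lies in the gene body. The choice bears on H3K4me1 as well, so these values are a description. H3K27ac intervals covered 36.3 and 35.0% of the gene body in replicates 1 and 2, a mean of 35.6 ± 0.976% (SD, n = 2). H3K4me1 intervals covered 44.1 and 50.4%, a mean of 47.2 ± 4.45% (n = 2). The 80 kb upstream of the gene had 5.64 and 5.85% for H3K27ac and 14.2 and 19.7% for H3K4me1. In every library the gene body thus had more than 2 times the coverage of the upstream stretch. The 7 kb between the genes held no interval in any of the 4 libraries. Within NNMT, H3K27ac covered 18.1 and 15.3% and H3K4me1 17.9 and 26.2%, so the marks overlapped in coverage there. The 17 kb downstream of NNMT had 29.7 and 26.0% for H3K27ac and 24.6 and 25.7% for H3K4me1. Over the autosomes and chromosome X, coverage was 2.48 and 2.30% for H3K27ac and 2.46 and 3.80% for H3K4me1. Along ZBTB16 and NNMT, the map of intervals shows a crowded middle part of ZBTB16, a bare stretch from the 3′ end of ZBTB16 into NNMT, and a smaller crowd in the downstream part of NNMT.

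**Figure D1:**
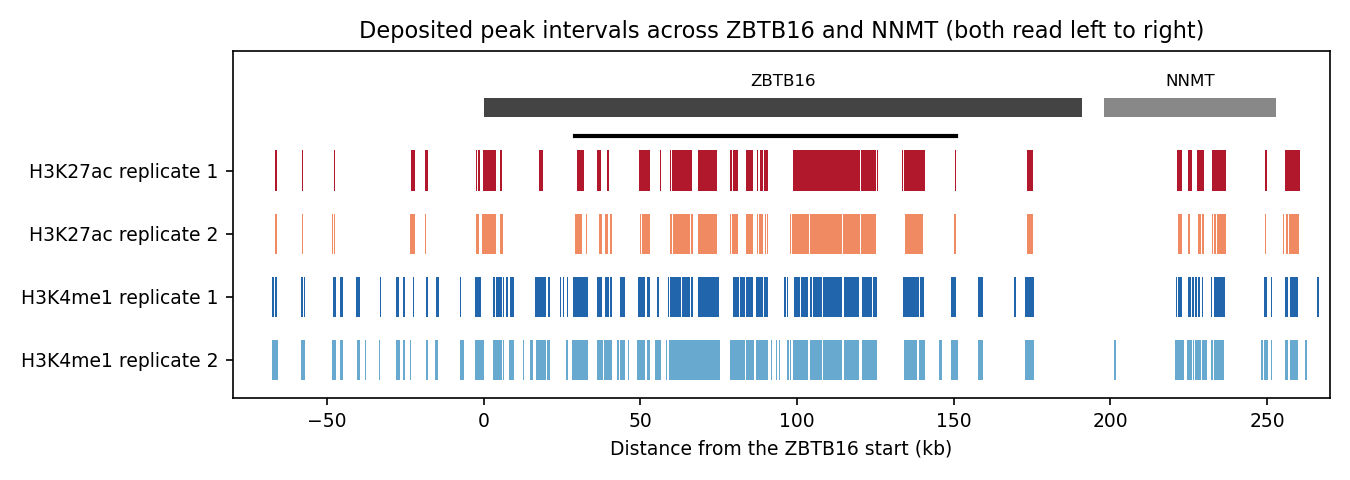
Deposited intervals of the 4 libraries (rows, coloured bars) against the distance from the ZBTB16 start in kb; grey bars are the genes and the black line is the H3K27ac domain from 29.2 to 151 kb. Intervals of all libraries crowd between about 50 and 141 kb and are missing from 176 to 221 kb except for 1 of H3K4me1 replicate 2.

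Windows of equal length elsewhere in the genome give the scale of these values. Of 8406 other windows of 350 kb tiled along the autosomes and chromosome X, 4 and 3 had at least the H3K27ac coverage of this window, which was 25.4% in replicate 1 and 24.1% in replicate 2. The median window had 1.48 and 1.32%. These H3K27ac ranks follow from the choice of the locus and nothing is read from them. For H3K4me1, which did not enter the ranking of domains, the window had 31.3 and 37.4%, against medians of 1.75 and 2.98% and highest values of 27.2 and 33.3% elsewhere. None of the 8406 windows reached the H3K4me1 coverage of the ZBTB16 window in either library. The same held for the gene body alone, with 0 of 15415 windows of 191 kb at or above its H3K4me1 coverage in either library, and 1 and 1 for H3K27ac. Earlier results had already shown much H3K4me1 here, so this is a description, and other tilings were not tried. The choice by H3K27ac also bears on H3K4me1, since 83.3% of shared H3K27ac regions of the genome overlap it. The limits used here were set for this locus, whereas the tiles fall without regard to genes or domains. Nothing is therefore read from the H3K4me1 ranks either.

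**Figure D2:**
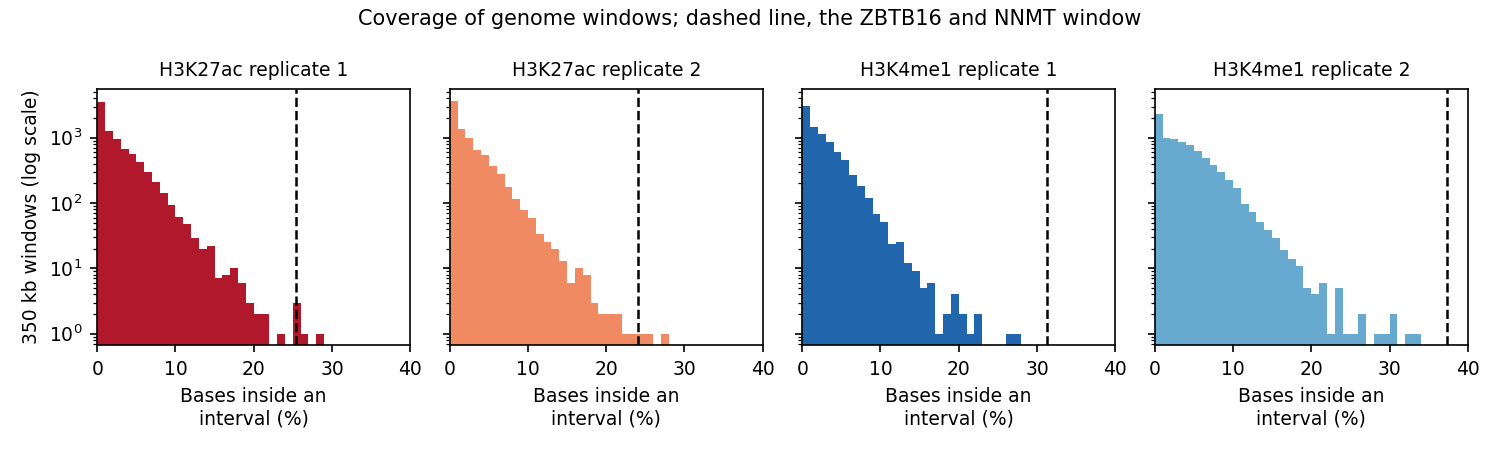
Number of 350 kb genome windows (log axis) by the percentage of their bases inside an interval, 1 panel per library; the dashed line is the ZBTB16 and NNMT window. The line stands at 25.4 and 24.1% for H3K27ac, within the far end of the bars, and at 31.3 and 37.4% for H3K4me1, beyond the highest other window.

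At the ZBTB16 start H3K27ac ran across a stretch that H3K4me1 largely left free. An H3K27ac interval of 4160 bp (113929620 to 113933779) in replicate 1 and one of 4436 bp (113929326 to 113933761) in replicate 2 covered the position given for the start. They began 381 and 675 bp upstream of it and ended 3.78 and 3.76 kb inside the gene. H3K4me1 did not cover that position in either library. In replicate 1 it ended at 113929238 and resumed at 113932967, a gap of 3728 bp. In replicate 2 it ended at 113929902 and resumed at 113932842, a gap of 2939 bp. Because the start is given to 1 kb, whether the H3K4me1 interval of replicate 2 reaches the true start cannot be told, whereas the gaps themselves do not depend on it. H3K4me1 replicates 1 and 2 covered 15.6 and 29.4% of the H3K27ac interval of replicate 1, and 14.6 and 33.7% of that of replicate 2. On the upstream side, H3K4me1 intervals of 1970 and 2804 bp enclosed smaller H3K27ac intervals that ended 1.16 and 1.43 kb before the start. On the inner side, H3K27ac intervals of 795 and 981 bp began 5.13 and 5.06 kb after the start and lay largely on H3K4me1.

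Over 5 kb to each side of the ZBTB16 start, H3K27ac covered 51.4 and 53.5% and H3K4me1 36.0 and 49.6%. The libraries of the marks did not overlap, and the difference of means was 9.63 percentage points (52.4 ± 1.52% against 42.8 ± 9.64%, SD, n = 2 each). By an exact permutation test, two-sided, p was 0.333, which is as low as 2 against 2 libraries can go, and 0.5 after Benjamini-Hochberg adjustment over 3 tests. The difference was 2.81 points without H3K4me1 replicate 1 and 16.4 points without H3K4me1 replicate 2. The direction depended on the span, since 2 kb to each side gave a difference of 39.2 points and 10 kb a difference of -8.95 points, with more H3K4me1.

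**Figure D3:**
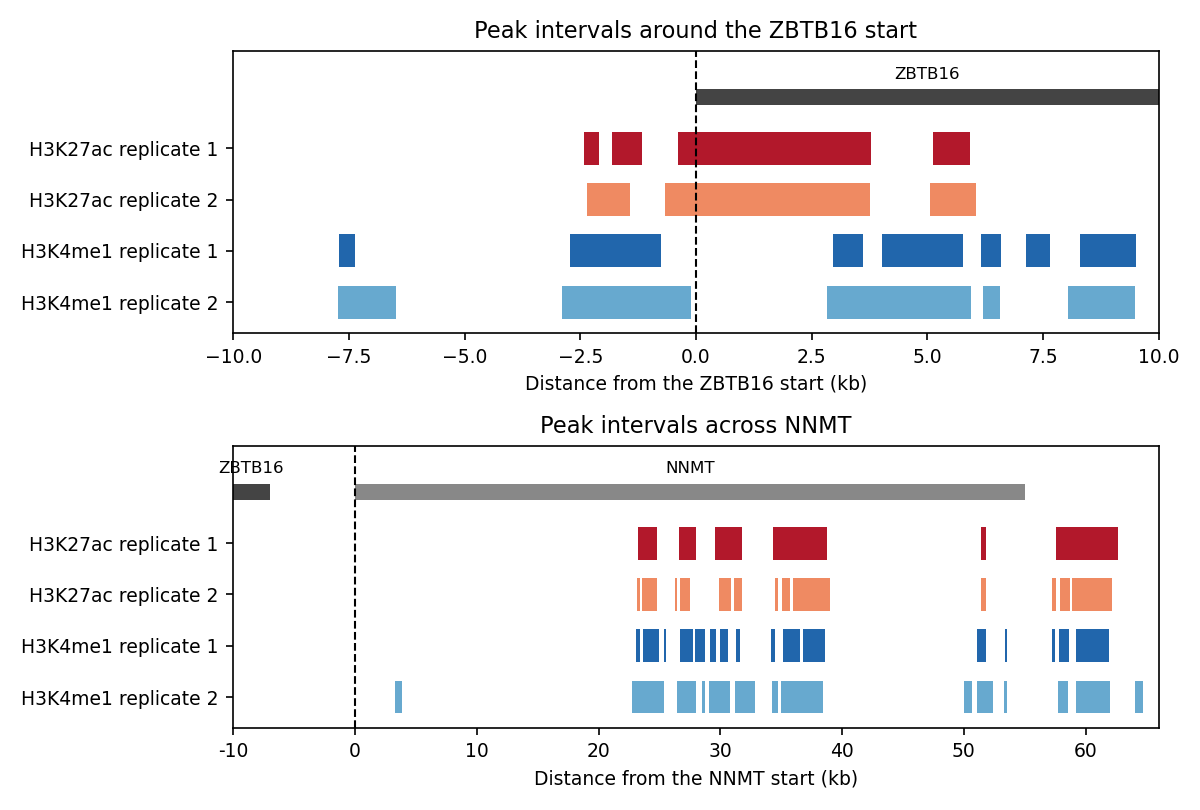
Intervals of the 4 libraries within 10 kb of the ZBTB16 start (top) and from 10 kb before the NNMT start to beyond its end (bottom), against distance from each start in kb; dashed lines mark the starts. H3K27ac crosses the position of the ZBTB16 start while H3K4me1 stops before it and resumes 2.97 and 2.84 kb after it. At NNMT all 4 libraries are empty at the start given for the gene and crowd from about 23 kb onward.

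Downstream of the start, the first 30 kb of ZBTB16 carried much H3K4me1 and little H3K27ac. H3K27ac covered 20.7 and 18.3% of these 30 kb and H3K4me1 39.2 and 40.9%. After the intervals next to the start, H3K27ac replicate 1 had only an interval of 1343 bp (113947638 to 113948980) before the domain began. H3K27ac replicate 2 had none there. That interval was wide for one seen in replicate 1 alone, since the median of the 6634 such intervals in the list was 311 bp. H3K4me1 covered it whole in both libraries, with intervals of 3355 and 3072 bp.

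A few wide regions held most of the H3K27ac of the window. Of 34 regions of the window that both H3K27ac libraries shared, 10 were at least 3 kb wide, and these held 63.7 of 91.4 kb. Over the genome 5497 of 47128 shared H3K27ac regions were that wide. The locus was chosen by its H3K27ac length, so nothing is read from the higher share of wide regions. The domain inside ZBTB16 holds 7 of the 10. The widest, 16081 bp from 114033943 to 114050023, began 104 kb after the ZBTB16 start and was 1 interval in replicate 1 and 2 intervals in replicate 2. That interval of replicate 1 ranked 12 by width among all 54763 H3K27ac intervals of its list on the autosomes and chromosome X. It had close neighbours on either side, at 114028389 to 114033715 (5327 bp) and 114050330 to 114055105 (4776 bp). Together these 3 regions ran from 98.4 to 125 kb after the start with only short breaks.

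Further wide H3K27ac regions stood before and after this run. Going downstream from the start of the domain they lay at 113979611 to 113983075 (3465 bp), 113989886 to 113996697 (6812 bp) and 113998292 to 114004567 (6276 bp), and past the run at 114064025 to 114070730 (6706 bp). The remaining 3 of the 10 were the region over the ZBTB16 start (4454 bp), 1 inside NNMT and 1 downstream of NNMT. All 22 shared H3K27ac regions in the ZBTB16 gene body overlapped H3K4me1 in at least 1 library, as did all 34 of the window, against 83.3% of the 47128 shared H3K27ac regions of the genome.

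H3K4me1 covered most of the middle of the 7 wide regions of the domain. Each region was cut into 3 equal stretches, and the middle stretch was covered for at least 53.3% by H3K4me1 replicate 1 and at least 69.2% by replicate 2, both lowest in the region at 113979611. There H3K4me1 had a break of 766 bp in replicate 1 and 450 bp in replicate 2, and the middle was covered less than either outer stretch in both libraries. In the region over the ZBTB16 start the middle stretch had 0% in both libraries. The median over all 10 wide regions of the window was 90.3 and 97.2%, against 24.1 and 39.96% over all 5497 shared H3K27ac regions of at least 3 kb. The 5497 were not split by distance from start sites, so the sets may differ in their share of promoters. The middle was covered less than either outer stretch in 2 of the 10 by replicate 1 (33.3% of all 5497) and in 3 by replicate 2 (38.2%), counts too small to set apart from those shares.

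The widest H3K4me1 region of the window was 16670 bp from 113988747 to 114005416, 58.7 to 75.4 kb after the ZBTB16 start. It was broken into 6 intervals in replicate 1 and 2 in replicate 2, which had 1 interval of 15532 bp there, rank 4 by width in its list. H3K27ac covered 75.8 and 76.6% of it in replicates 1 and 2. The next widest were 114063653 to 114070777 (7125 bp), 114038237 to 114044359 (6123 bp), 114044813 to 114049891 (5079 bp) and 114050548 to 114055607 (5060 bp). Of these, the regions at 114038237 and 114044813 lay wholly inside H3K27ac in both libraries. At 114063653 and 114050548, H3K27ac covered 95.0 and 81.7% and 93.9 and 94.0%. The 5 widest H3K4me1 regions were thus all in the ZBTB16 domain and lay mostly inside H3K27ac.

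Some short breaks recurred at the same places in different libraries. No matching count over the whole lists is at hand, so whether breaks recur more here than elsewhere cannot be told. At 114033716 to 114033942 (227 bp) and at 114050024 to 114050329 (306 bp) none of the 4 libraries had an interval, although all had intervals within 1 kb on each side. These were the only 2 such breaks in the gene body where every library's own gap was under 1 kb. In H3K27ac replicates 1 and 2 the first break measured 227 and 241 bp and the second 306 and 353 bp. In H3K4me1 replicates 1 and 2 they measured 528 and 476 bp and 678 and 656 bp, wider than in H3K27ac. In the gene body H3K27ac replicates 1 and 2 had 9 and 18 breaks under 1 kb, of which 7 pairs overlapped, 3 with both edges within 50 bp. H3K4me1 replicates 1 and 2 had 28 and 20 such breaks, of which 12 pairs overlapped, 3 with both edges within 50 bp. H3K27ac ran across 3 of the 12 in both of its libraries. Of these 3, the break that began 108 kb after the start, at 114037834 and 114037833, was the closest match between replicates, with 405 and 404 bp and edges 1 and 2 bp apart. Intervals closer than a distance set per list (222, 173, 192 and 233 bp, in the order H3K27ac replicates 1 and 2, H3K4me1 replicates 1 and 2) never occur, so narrower breaks cannot be seen.

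Both marks were densest in the middle of the gene, within the domain that led to the choice of the locus. With the gene body cut into 10 equal parts of 19.1 kb, H3K27ac peaked in part 6 at 82.9 and 84.2%, where H3K4me1 had 75.8 and 82.3%. H3K4me1 was at 72.9 and 86.5% in part 4, where H3K27ac had 66.2 and 66.8%. H3K27ac was below H3K4me1 in both of its libraries over parts 1 to 5. In part 2 H3K27ac had 17.6 and 17.9% and H3K4me1 47.9 and 45.9%. In parts 6 and 7 both H3K27ac libraries lay above both H3K4me1 libraries, in part 7 with 56.8 and 53.5% against 50.9 and 53.1%. Part 9 had 0 and 0% for H3K27ac and 11.5 and 7.97% for H3K4me1. Part 10, at the 3′ end, had 10.3 and 10.3% for H3K27ac and 15.1 and 14.6% for H3K4me1.

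**Figure D4:**
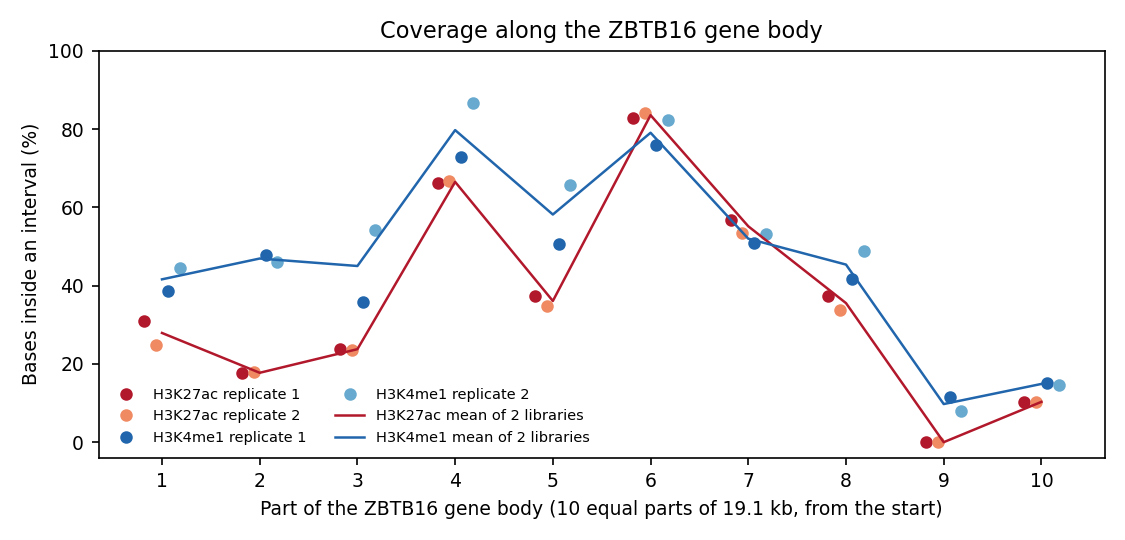
Percentage of bases inside an interval (y axis) in each of 10 equal parts of the ZBTB16 gene body from its start (x axis); points are libraries and lines the mean of the 2 libraries of a mark. H3K4me1 lies above H3K27ac in parts 1 to 5, H3K27ac reaches 82.9 and 84.2% in part 6, and both marks are at their lowest in parts 9 and 10.

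The last 40.3 kb of ZBTB16, past the domain, held 1 further shared H3K27ac region, at 114103354 to 114105324 (1971 bp). The replicates gave it almost the same limits, with widths of 1966 and 1970 bp, and H3K4me1 intervals of 2888 and 2796 bp enclosed it. On either side of it H3K27ac was absent from both libraries for 22.7 kb upstream and 15.7 kb to the end of the gene. Counting both marks, the longest stretches of the gene body without any interval were 114105503 to 114121000 (15.5 kb), 114089323 to 114099203 (9.88 kb), 114055780 to 114063417 (7.64 kb) and 114081349 to 114087658 (6.31 kb).

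Sites with H3K4me1 and no H3K27ac lay both upstream of ZBTB16 and in its gene body. Of 50 H3K4me1 regions of the window found in both libraries, 35 overlapped H3K27ac in at least 1 library, against 55.1% of 84838 such regions of the genome. The other 15 were narrower, with a median width of 918 bp (297 to 1788 bp) against 2568 bp for those with H3K27ac. Upstream of ZBTB16, 7 of 12 regions lacked H3K27ac. In its gene body 7 of 28 did, and in NNMT 1 of 8, and the difference between stretches was not tested. By bases, H3K4me1 of both libraries without any H3K27ac covered 9.03% of the upstream stretch and 8.99% of the gene body. Those of at least 1 kb lay upstream at 113889237 to 113890580, 113901852 to 113903115, 113914371 to 113915612 and 113922272 to 113923524, and in the gene at 113938031 to 113939502, 113973411 to 113975198 and 114087659 to 114089322. The last of these stood 158 kb after the start, in the 22.7 kb without H3K27ac. No shared H3K27ac region of the window lacked H3K4me1 in both libraries. The region at 113906550 to 113907956, upstream of ZBTB16, had 13.6 and 23.4%, lower than the 14.5 and 34.0% of the region over the ZBTB16 start. Its 2 values came from different H3K4me1 intervals, each seen in 1 library alone, and 0% of the region lay in H3K4me1 of both libraries.

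The position given for the NNMT start carried neither mark in any of the 4 libraries. Starts of other NNMT transcripts were not placed, so this does not tell whether a promoter further inside the gene is marked. No interval of H3K27ac, or of H3K4me1 replicate 1, lay within 20 kb of it. H3K4me1 replicate 2 had an interval of 596 bp (114131263 to 114131858) 3.26 kb downstream of the start. H3K27ac was absent for 45.9 kb around the start in both libraries, from its last region in ZBTB16 to an interval 23.2 kb inside NNMT. Within 5 kb of the start coverage was 0 and 0% for H3K27ac and 0 and 5.96% for H3K4me1, a difference of -2.98 percentage points that rests on H3K4me1 replicate 2. In the same exact permutation test p was 1, also after adjustment.

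Both marks returned in the downstream part of NNMT. A second H3K27ac domain, rank 266 of 27436, ran from 114151183 to 114190632 with 6 regions that add up to 15.4 kb, and passed the end of NNMT. Its wide region inside the gene, 114162288 to 114167018 (4731 bp), was 1 interval of 4454 bp in H3K27ac replicate 1 and 3 intervals in replicate 2, the last of them 3029 bp. H3K4me1 covered 72.2 and 80.3% of that region and stopped at 114166577 and 114166392, while H3K27ac went on to 114166741 and 114167018. Beyond it H3K27ac was absent for 12.4 kb and H3K4me1 for 11.5 kb. The region past the end of NNMT, 114185588 to 114190632 (5045 bp), had H3K4me1 over all of its middle stretch in both libraries and over 49.8 to 62.8% of its outer stretches. RefSeq lists 7 transcripts for ZBTB16 and 5 for NNMT, and where shorter ones begin in hg19 was not used here, so regions are placed only by their distance from the start given for each gene.

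Outside the ZBTB16 gene body, which the choice of the locus did not rest on, H3K27ac covered less than H3K4me1. It covered 12.3 and 11.02% of the rest of the window and H3K4me1 covered 16.0 and 21.7%. The difference of means was -7.21 percentage points (11.7 ± 0.893% against 18.9 ± 4.07%, SD, n = 2 each). The libraries of the marks did not overlap, but 2 against 2 libraries allow no exact permutation p below 0.333, which was the value, with 0.5 after adjustment over the 3 tests. The H3K4me1 list of replicate 2 also covers more of the genome than the other lists (3.80% against 2.30 to 2.48%), and the part of this in the difference was not tested. Leaving out an H3K4me1 library moved the difference to -4.33 points without replicate 2 and -10.1 points without replicate 1. The marks were not ordered alike in every stretch. Downstream of NNMT both H3K27ac libraries lay above both H3K4me1 libraries.

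Replicates found most of the same intervals. Of H3K27ac intervals of the window, 35 of 39 in replicate 1 and 46 of 53 in replicate 2 overlapped an interval of the other library, close to the 87.9 and 86.0% of the whole lists. Of H3K4me1 intervals, 69 of 79 in replicate 1 did so, against 88.3% in its whole list. The count was 53 of 69 in replicate 2, or 76.8%, against 68.7% in its whole list. By bases, H3K27ac libraries shared 83.3% of what either covered in the gene body, against 76.9% over the whole lists, and H3K4me1 libraries 78.6% against 51.8%. The locus was chosen on regions found in both H3K27ac libraries, so nothing is read from the H3K27ac share. Replicates also differed in how finely shared regions were cut. Of 34 shared H3K27ac regions, 9 held more intervals in replicate 2 and 1 held more in replicate 1. Of 50 shared H3K4me1 regions, 12 held more intervals in replicate 1 and 0 in replicate 2. Such cuts were not counted over the whole lists, so they are not read as a trait of this locus. Whole-list median widths were also lower in H3K27ac replicate 2 than in replicate 1 (623 against 902 bp). For H3K4me1 they were lower in replicate 1 than in replicate 2 (448 against 650 bp). Regions seen in 1 library alone numbered 4 in H3K27ac replicate 1 and 7 in replicate 2, and 10 in H3K4me1 replicate 1 and 16 in replicate 2.

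The marks coincided in the window more often than in the lists as a whole. Of the 39 intervals of H3K27ac replicate 1, 37 lay on H3K4me1 replicate 1 (71.7% of the whole list did) and 38 on H3K4me1 replicate 2 (79.8%). Of the 53 intervals of H3K27ac replicate 2, 50 (69.5%) and 51 (77.9%) did. Of the 79 intervals of H3K4me1 replicate 1, 48 lay on H3K27ac replicate 1 (43.8%) and 47 on replicate 2 (43.5%), and of the 69 of H3K4me1 replicate 2, 38 (39.6%) and 37 (39.6%). The higher shares held in all 8 pairs of lists. No test of them was made, because the locus was chosen for its H3K27ac and wide intervals meet others more easily. Median widths in the window were 1294 and 654 bp for H3K27ac, against 902 and 623 bp in the whole lists, and 872 and 1260 bp for H3K4me1, against 448 and 650 bp.

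**Figure D5:**
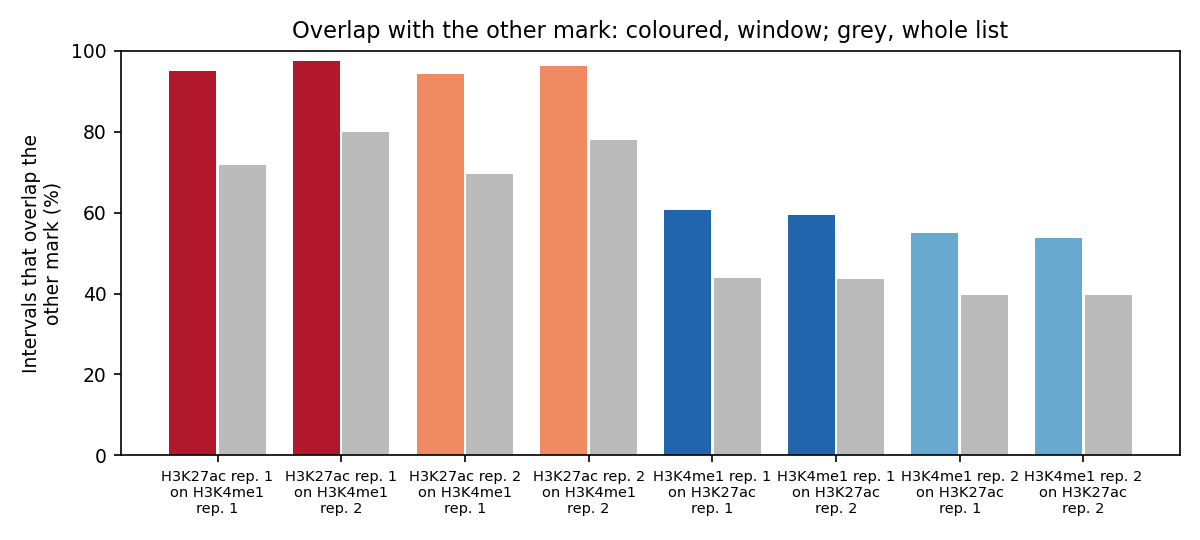
Percentage of intervals that overlap the other mark by at least 1 bp (y axis) for each of 8 pairs of lists (x axis); coloured bars are the intervals of the ZBTB16 and NNMT window, grey bars the whole list. The coloured bar is the taller in every pair, with 94.3 to 97.4% for H3K27ac and 53.6 to 60.8% for H3K4me1.

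Shares of overlapping bases were above those of the whole lists for both marks within ZBTB16. The locus was chosen for its H3K27ac, which bears on these shares, and no test of them was made. Since the overlapping bases of a pair are the same for both marks, the mark that covers fewer bases has the higher share. H3K4me1 replicates 1 and 2 covered 85.9 and 90.9% of the bases of H3K27ac replicate 1 in the gene body and 86.6 and 91.3% of those of replicate 2. Over the whole lists these shares were 41.8 and 52.9% and 42.4 and 52.5%. H3K27ac replicates 1 and 2 covered 70.8 and 68.6% of the bases of H3K4me1 replicate 1 and 65.6 and 63.4% of those of replicate 2, against 42.2 and 39.7% and 34.6 and 31.8% over the whole lists. All 4 libraries coincided on 53.8 kb of the gene body, or 28.2%. H3K27ac of both libraries stood without any H3K4me1 on 4.6 kb, H3K4me1 of both libraries without any H3K27ac on 17.2 kb, and 83.9 kb had neither mark in any library. Outside the gene body the shares of H3K27ac bases inside H3K4me1 were lower, at 70.7 and 81.8% for H3K27ac replicate 1 and 72.7 and 82.0% for replicate 2.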

How the data were processed

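Peak lists of 2 H3K27ac and 2 H3K4me1 libraries were used. Each deposited list has 4 columns (chromosome, start, end, name), and its values are positions in bp. Build hg19 and the tools MACS2 2.1.0, Bowtie 1.1.2, Trimmomatic 0.33 and bcl2fastq 2.17 appear in the submitters' processing notes. What each did, the peak threshold and the control are not stated there, and depth is unknown. Peaks were called per library, as the deposited lists, 1 for each library, show. Gene limits came with the definition of the locus, and positions count from 1.

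Coverage, overlaps of at least 1 bp and joined regions were computed in Python 3.11.15 with NumPy 2.4.6, checked on simulated intervals. The 3 differences between marks (coverage near both starts and outside the ZBTB16 gene body) had exact two-sided permutation tests. Regions named are shared H3K27ac regions of at least 3 kb, the 5 widest shared H3K4me1 regions, those nearest the starts, regions of 1 mark of at least 1 kb and the longest empty stretches. Left-out libraries, common widths, widest intervals, overlap limits and spans were tried as alternatives. Other regions given singly were chosen after their values were seen. Members, lists and tests were chosen with earlier results of these data known.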

Additional observations from a re-analysis of the deposited data

How the results depend on the processing

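Over 11 results and 87 alternatives, 77 kept their direction or moved by less than the spread between replicates, 9 moved further and 1 turned its direction. Some of the 77 could not have changed. A mark's own coverage or recurrence does not use the other mark's libraries, and a replicate block leaves a difference of means as it was. Leaving out 1 of the 2 libraries of a mark moves its mean coverage by less than their SD, whatever the values. Where the libraries of the marks did not overlap, leaving 1 out could not turn the difference either. The tally therefore overstates how far the results were put to a trial. It also counts as kept the difference at the NNMT start where that difference fell to 0 points. This was so without H3K4me1 replicate 2, with the widest intervals, and with 2 kb to each side. The difference in coverage at the ZBTB16 start turned to -8.95 percentage points with 10 kb to each side. The bases this added downstream, from 5 to 10 kb, had 15.9 and 19.6% for H3K27ac and 57.7 and 55.6% for H3K4me1. Those added upstream had 0 and 0% for H3K27ac and 7.3 and 25.1% for H3K4me1. Why the marks differ there was not tested. H3K27ac coverage of the gene body was 34.6% without its first 5 kb. Keeping the 54763 widest intervals of each list left H3K27ac replicate 1 whole and cut the H3K4me1 lists from 118231 and 125320 intervals. The ratio of H3K27ac to H3K4me1 intervals was then 0.808 (0.622 as deposited). The shares on the other mark were 90.0% for H3K27ac and 73.1% for H3K4me1, and 91.98% of H3K4me1 intervals recurred. How far these shifts come from the unequal cut was not tested. An overlap of 50% of the shorter interval gave 85.1% recurring and 90.8% of H3K27ac intervals on H3K4me1, as a stricter criterion must lower both. A common smallest width of 232 bp and joining distance gave 94.1% of H3K27ac intervals on H3K4me1. Counting bases in either library gave 91.8% of H3K27ac bases inside H3K4me1. With single libraries left out, gene-body coverage ranged over 34.96 to 36.3% (H3K27ac) and 44.1 to 50.4% (H3K4me1), and the differences between marks over -10.1 to -4.33 points outside the gene body, 2.81 to 16.4 at the ZBTB16 start and -5.96 to 0 at the NNMT start.

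Same-numbered libraries are not stated to be paired, and their deviations correlated at r = -0.281 over 8406 windows. A replicate block left the 3 differences at 9.63, -7.21 and -2.98 points, with exact sign-flip p of 0.5, 0.5 and 1, and gave a ratio of 0.616 and 88.6% of bases. Crossed numbers, added after seeing the data, gave 0.616 and 88.7%. Stricter peak thresholds could not be applied, since the lists hold no scores. Keeping the widest intervals was tried instead, but it removed none from H3K27ac replicate 1. Whether width follows significance in these lists is unknown. With 2 libraries per mark no p below 0.333 was possible.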
